A study of Homo sapiens with 8 samples.

Results

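The mitochondrial rRNAs and tRNAs were taken as every listed peak whose annotation is MT-RNR1, MT-RNR2 or a mitochondrial tRNA, either on the mitochondrial chromosome (chrM) or on a transcript reference. In the 2 lists of enriched peaks, 21 of 538 peaks met this rule, 11 of 287 in C459A and 10 of 251 in WT. They were found in a miCLIP-sequencing experiment with FLAG-tagged NOP2/NSUN1 in HEK293T, a human line from embryonic kidney, whose cells were harvested 40 h after transfection. The mutant group expressed the C459A protein, which stays covalently bound to a cytosine it has attacked, and the other group expressed WT protein, both from a plasmid beside the cells' own NOP2/NSUN1. Lysates were not UV crosslinked and were digested with RNase T1, and each FLAG IP was paired with an SMInput, the RNA of the same membrane region before IP, with 2 biological replicates of each in both groups (8 libraries). The value of a peak is the fold change, IP over SMInput, on the log2 scale from the authors' peak caller, with its adjusted p from the same caller, and both replicates enter that 1 value, so there is no spread between replicates. Only peaks with an adjusted p under 0.05 and at least 2-fold enrichment were listed. An RNA without a peak was not shown to be unbound, and no difference between C459A and WT was tested. The paper reports that mock IP samples yielded too little RNA for libraries, so SMInput was the only sequenced control. A listed peak is therefore enrichment over SMInput and was not compared with an IP lacking the FLAG-tagged protein.

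Mitochondria make their own rRNAs and tRNAs from a small circular genome. Each strand is transcribed into long precursors in which tRNAs lie between the rRNAs and mRNAs, and the tRNAs are cut out at their 5′ end by mitochondrial RNase P and at their 3′ end by ELAC2, which frees the neighbouring RNAs. MT-RNR1 is the 12S rRNA of the small mitochondrial ribosomal subunit, MT-RNR2 is the 16S rRNA of the large subunit, and MT-TL1 is the leucine tRNA that reads UUR codons. MT-TL1 lies between MT-RNR2 and MT-ND1, the mRNA of a subunit of complex I. Its gene holds the binding site of the transcription termination factor MTERF1, and a partly processed precursor of these 3 RNAs, RNA19, is known. Cytosine methylation of these RNAs is known from other members of the NSUN family, NSUN4 for 12S rRNA and NSUN2 for several mitochondrial tRNAs, whereas NOP2/NSUN1 is a nucleolar protein.

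The sequences of hg38 under the peaks that the results turn on are shown in the sense of the RNA, which for all of them is the plus strand of chrM. In the first line the capitals mark MT-TL1, with the last bases of MT-RNR2 before it and the first bases of MT-ND1 near its end. In MT-TW, the tryptophan tRNA, they mark the C459A peak. In MT-TF, the phenylalanine tRNA, they mark the part inside the WT peak that runs on into MT-RNR1. In the MT-RNR2 segment with a peak in both lists they mark the bases common to both. In the segment at the 3′ end of MT-RNR1, listed in C459A, they mark the bases that were also inside a WT peak.
MT-TL1 with its borders, chrM:3220-3337: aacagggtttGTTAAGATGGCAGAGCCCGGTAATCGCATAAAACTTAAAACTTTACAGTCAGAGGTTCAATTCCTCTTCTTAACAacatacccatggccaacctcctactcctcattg
MT-TW, chrM:5512-5579: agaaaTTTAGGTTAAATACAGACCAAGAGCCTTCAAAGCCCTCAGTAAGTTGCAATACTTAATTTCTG
MT-TF, chrM:577-647: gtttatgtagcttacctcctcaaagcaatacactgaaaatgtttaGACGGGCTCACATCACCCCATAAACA
MT-RNR2, peak of both lists, chrM:1769-1971: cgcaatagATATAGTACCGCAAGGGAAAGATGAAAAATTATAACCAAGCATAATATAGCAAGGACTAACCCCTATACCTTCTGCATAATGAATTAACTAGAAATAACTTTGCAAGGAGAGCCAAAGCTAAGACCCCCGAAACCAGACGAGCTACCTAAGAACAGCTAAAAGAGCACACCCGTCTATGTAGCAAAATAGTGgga
MT-RNR1, 3′ end, chrM:1416-1601: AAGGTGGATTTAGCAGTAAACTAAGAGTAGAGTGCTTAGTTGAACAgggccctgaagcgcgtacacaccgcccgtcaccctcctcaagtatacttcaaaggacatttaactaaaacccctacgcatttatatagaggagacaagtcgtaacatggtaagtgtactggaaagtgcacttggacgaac

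MT-TL1 had the largest log2 fold changes of all mitochondrial peaks in both lists, and in C459A the smallest adjusted p-values of the whole list. On its transcript reference the peak covered all 75 bases in each list, at a log2 fold change of 6.83 in C459A (adjusted p of 1.31e-49) and 6.07 in WT (adjusted p of 1.73e-17). On chrM the log2 fold change of the MT-TL1 peak was 5.12 in C459A (adjusted p of 4.61e-65) and 5.03 in WT (adjusted p of 1.43e-21). The chrM and transcript peaks ranked 1st and 2nd by adjusted p among the 287 C459A peaks, and 4th (tied with another peak) and 10th among the 251 WT peaks. By fold change the chrM peak ranked 77th and the transcript peak 26th in C459A, and they ranked 55th and 21st in WT. The fold changes on chrM thus differed by 0.08 on the log2 scale between the lists while the adjusted p-values were far apart. The read counts behind them are not in the lists. The transcript and chrM peaks lie on the same RNA and are not separate observations of it.

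**Figure D1:**
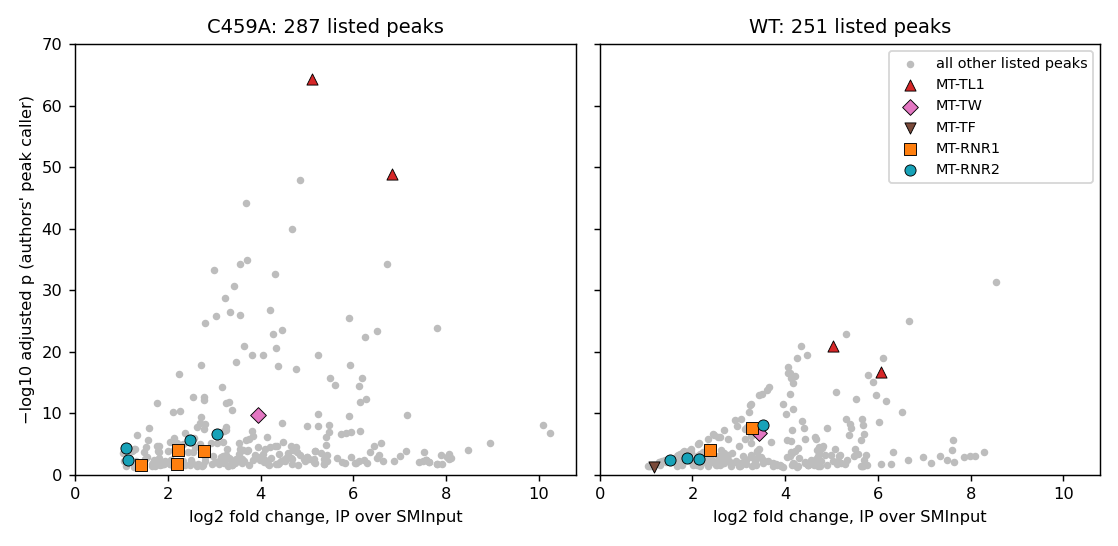
Every listed peak by its log2 fold change, IP over SMInput (horizontal axis) and −log10 of the adjusted p of the authors' peak caller (vertical axis), in C459A (left, 287 peaks) and WT (right, 251 peaks). Coloured points are the mitochondrial RNAs and gray points all other peaks. The 2 MT-TL1 peaks stand highest in C459A, at log2 fold changes of 5.12 and 6.83.

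The MT-TL1 peak on chrM was wider than the tRNA and crossed both of its borders. It began at base 3220 in both lists, where the printed sequence starts, 10 bases before the first base of MT-TL1, and so held the last 10 bases of MT-RNR2. The peak ran to base 3315 in C459A and to base 3337 in WT, past the 2 bases that separate MT-TL1 from MT-ND1 and 9 bases into MT-ND1 in C459A and 31 bases in WT. The peaks were 96 bases wide in C459A and 118 bases wide in WT, and all 96 bases of the C459A peak lay inside the WT peak. A peak is a merged region, so it does not show whether single RNA fragments crossed a border or fragments of separate RNAs lay side by side. MT-ND1 itself had no peak of its own in either list, and none of the 13 mitochondrial mRNAs had one.

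**Figure D2:**
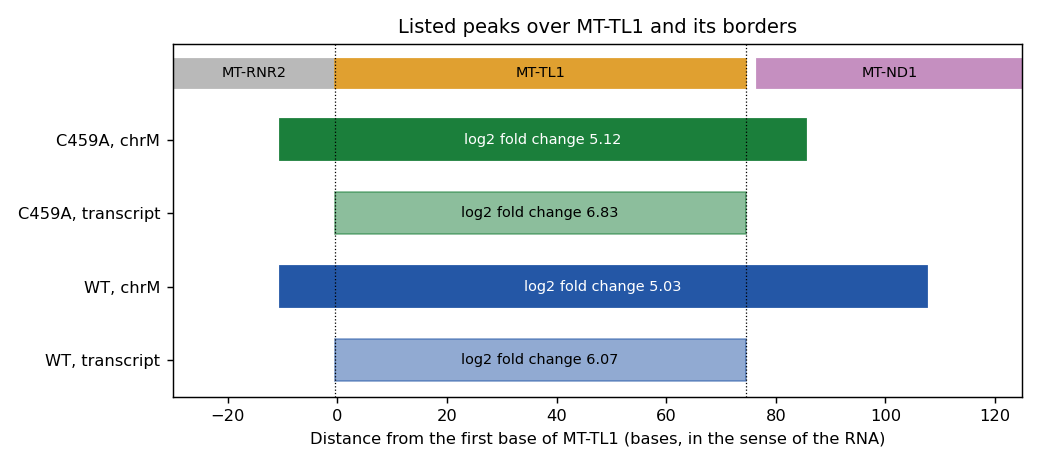
Listed peaks over MT-TL1 by distance in bases from its first base, with the annotated MT-RNR2, MT-TL1 and MT-ND1 above and dotted lines at the ends of MT-TL1. Bars are the C459A and WT peaks on chrM and on the transcript reference with their log2 fold changes of IP over SMInput. The chrM peaks start at the same base in both lists and end 9 bases (C459A) and 31 bases (WT) inside MT-ND1.

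MT-TW was the other tRNA with a peak in both lists. The peak lay on the transcript reference, at bases 6 to 68 in C459A at a log2 fold change of 3.95 (adjusted p of 1.91e-10) and over all 68 bases in WT with 3.44 (adjusted p of 1.55e-07). MT-TW had no peak on chrM, and 1 stretch of a nuclear chromosome holds an identical copy of its 68 bases, so its reads cannot be assigned to chrM with certainty. MT-TF was listed in WT alone, over all 71 bases and just past both thresholds, at a log2 fold change of 1.16 (adjusted p of 0.0450), and values under the thresholds in C459A are not in the list. On chrM, however, the first MT-RNR1 peak of each list began inside MT-TF, covering its last 7 bases in C459A and its last 26 in WT.

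Of the 22 mitochondrial tRNAs, 2 had a peak in C459A and 3 in WT, and 19 had none in either list. Among those without a peak was MT-TV, the valine tRNA, although it lies between MT-RNR1 and MT-RNR2, with no base between it and either rRNA. The 14 tRNAs encoded in the sense of the plus strand include all 3 with a peak. None of the 8 tRNAs of the opposite sense had one, among them MT-TA, MT-TN, MT-TC and MT-TY, the tRNAs of alanine, asparagine, cysteine and tyrosine that follow MT-TW on the genome. All 21 mitochondrial peaks lay on the plus strand, the sense strand of the RNAs they were assigned to, and 28 of the 37 mitochondrial genes are encoded in that sense. In the whole lists, 28 of 287 C459A peaks and 15 of 251 WT peaks lay on the minus strand of their reference. On a transcript reference plus is the sense of the RNA itself, and 3 C459A and 4 WT mitochondrial peaks lay on one. Only 56 C459A and 44 WT peaks lay on nuclear chromosomes, so these shares are not a like comparison for strand.

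The peaks of MT-RNR1 reached from its first base to its last in C459A and covered 91.2% of its 954 bases, compared with 65.7% in WT. In C459A there were 4 peaks. The first, at chrM:641-833, covered bases 1 to 186 of the rRNA, at a log2 fold change of 2.23 (adjusted p of 0.000106). The second covered bases 208 to 432 with 1.42 (adjusted p of 0.0240), and the third, bases 461 to 733, with 2.79 (adjusted p of 0.000131). The last covered bases 769 to 954, at a log2 fold change of 2.21 (adjusted p of 0.0212) and ended on the last base of MT-RNR1, so that it did not enter MT-TV. The middle of MT-RNR1 thus had the largest log2 fold change and the segment before it the smallest.

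In WT, MT-RNR1 had 2 wider peaks. The first, at chrM:622-891, reached base 244 of the rRNA, at a log2 fold change of 2.37 (adjusted p of 8.46e-05). The second, at chrM:1079-1461, covered bases 432 to 814, at a log2 fold change of 3.29 (adjusted p of 2.98e-08). Together the lists left no base of MT-RNR1 uncovered, with 543 bases inside peaks of both, 327 in C459A alone and 84 in WT alone. The C459A-only bases were 2 stretches, bases 245 to 431 and the 140 bases from 815 to the 3′ end, the lower-case part of the MT-RNR1 sequence above. The 2 C459A peaks that hold them, at log2 fold changes of 1.42 and 2.21, had adjusted p-values over 0.01, and without them the C459A peaks covered 48.1% of MT-RNR1.

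MT-RNR2 was covered to the same extent in both lists, 50.0% of its 1559 bases in each (its last 10 bases through the MT-TL1 peak), but only 564 bases were inside peaks of both. The segment with the largest log2 fold change lay near the 5′ end, at bases 99 to 301 in C459A with 3.07 (adjusted p of 2.59e-07) and at bases 107 to 298 in WT with 3.52 (adjusted p of 8.71e-09). All 192 bases of that WT peak lay inside the C459A peak. The transcript reference of MT-RNR2 had a wider peak over the same place with a lower log2 fold change, 1.10 at bases 79 to 364 in C459A (adjusted p of 3.93e-05) and 1.52 at bases 73 to 368 in WT (adjusted p of 0.00405). A second segment of both lists, at bases 694 to 965 in C459A and 668 to 961 in WT, had log2 fold changes of 1.15 (adjusted p of 0.00344) and 1.88 (adjusted p of 0.00189).

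One WT peak of MT-RNR2 had no counterpart on chrM in C459A. It covered bases 350 to 548 (chrM:2020-2218) with 2.14 (adjusted p of 0.00288), and the C459A peak on the transcript reference reached 15 bases into it. The last 10 bases of MT-RNR2 lay inside the MT-TL1 peak, the one with the smallest adjusted p of C459A, while the nearest other MT-RNR2 peak of WT ended at base 961.

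**Figure D3:**
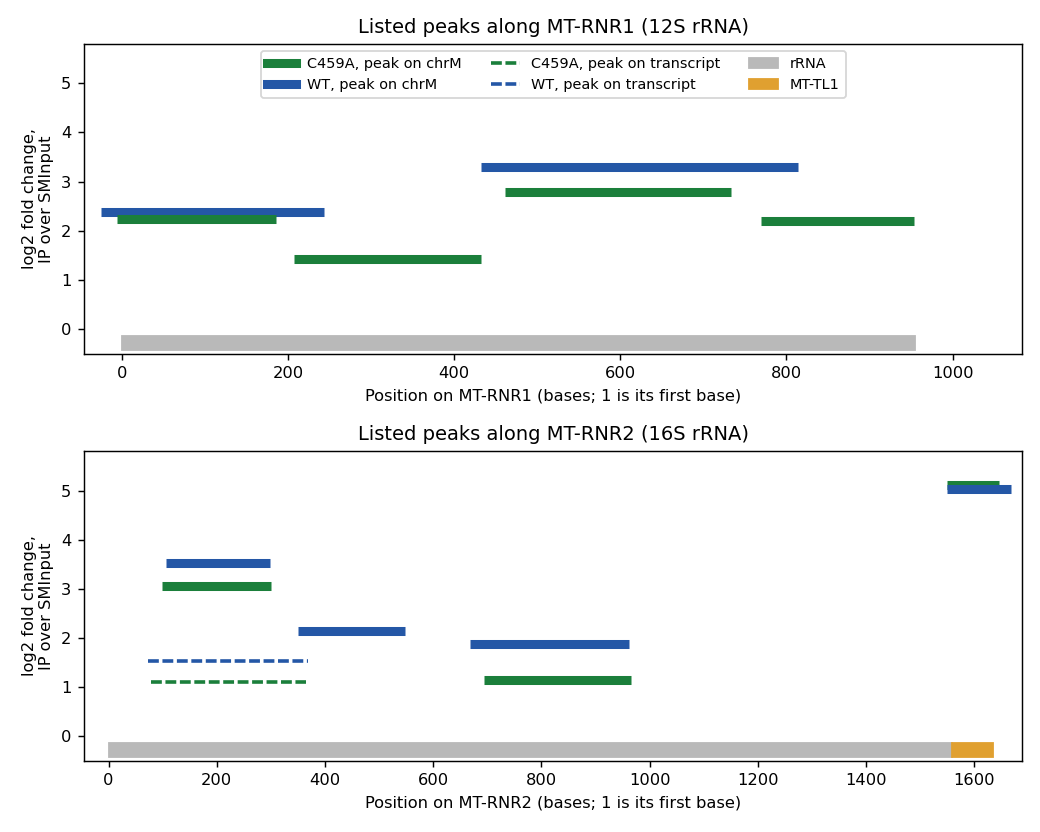
Listed peaks along MT-RNR1 (top) and MT-RNR2 with the adjoining MT-TL1 (bottom). Each bar spans a peak by position in bases, at the height of its log2 fold change of IP over SMInput. Thick bars are peaks on chrM and dashed bars peaks on the transcript reference, in C459A and in WT, and 1 C459A peak of MT-RNR2 is not drawn. Peaks lie over 91.2% of MT-RNR1 in C459A and 65.7% in WT, and the MT-RNR2 peaks stand below the MT-TL1 peaks at the right.

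Most mitochondrial peaks of each list overlapped a peak of the other, as did most listed peaks. In C459A 10 of 11 shared at least 1 base with a WT peak on the same reference and strand, against 71.8% of all C459A peaks. In WT 8 of 10 shared a base with a C459A peak, against 82.5% of all WT peaks, the exceptions being MT-TF and the MT-RNR2 peak at bases 350 to 548. Wide peaks meet a 1-base rule more easily. The median width of mitochondrial peaks was 203 bases in C459A and 195.5 in WT, against 85 and 93 over all listed peaks. With an overlap of at least 50% of both peaks the counts were 8 of 11 in C459A and 8 of 10 in WT. The share over all listed peaks was not computed for that rule. Where peaks of both lists shared at least 50% of the bases covered by either, which held for 8 pairs, the log2 fold change was lower in C459A than in WT for all 5 rRNA pairs and higher in C459A for all 3 tRNA pairs. The differences, C459A minus WT, lay between -0.73 and -0.15 on the log2 scale for the rRNA pairs, with a median of -0.46, and between 0.08 and 0.76 for the tRNA pairs, with a median of 0.50. Over all 200 such pairs of the lists, the median was -0.14, with 47.5% higher in C459A. The pairs on chrM and on transcripts are partly the same RNAs, and with the replicates pooled these differences have no error and were not tested.

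**Figure D4:**
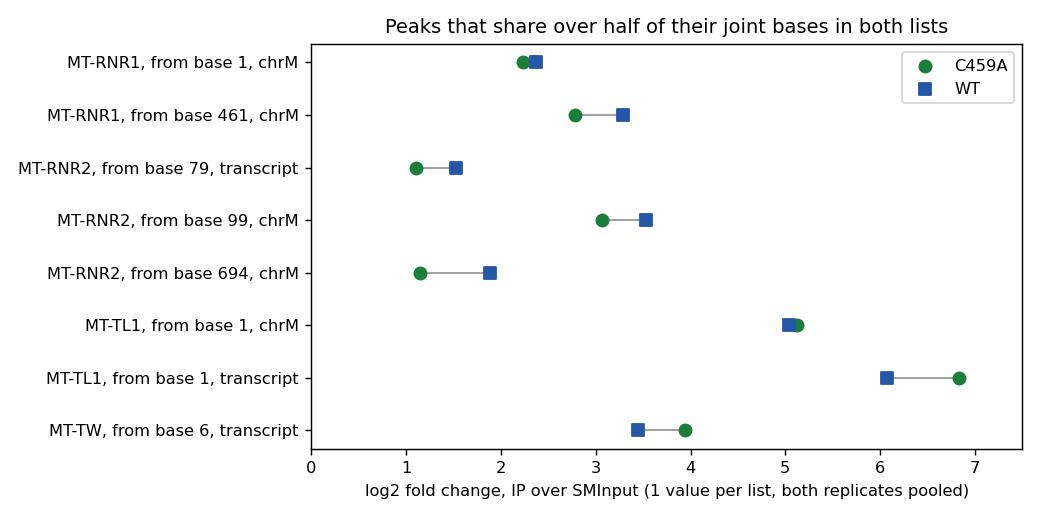
Log2 fold change of IP over SMInput (horizontal axis) of the 8 pairs of mitochondrial peaks that share at least 50% of their joint bases, in C459A (circles) and WT (squares). Rows give the RNA, the first base of the C459A peak on it and the reference. The 5 rRNA pairs are lower in C459A and the 3 tRNA pairs higher, with no error bars because each list holds 1 value per peak.

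The mitochondrial rRNA peaks were wider and had a lower median fold change than the lists as a whole. The mitochondrial tRNA peaks had a higher median, but MT-TL1 enters it in each list by both its chrM and its transcript peak. MT-TW had a log2 fold change of 3.95 in C459A and 3.4426 in WT, where the median of all peaks was 3.4436. The only other tRNA peak, of MT-TF in WT, had 1.16. Over all mitochondrial peaks the median log2 fold change was 2.48 in C459A, where all 287 peaks had a median of 3.63, and 2.83 in WT, where all 251 had 3.44. The rRNA peaks had medians of 2.22 (8 peaks) in C459A and 2.26 (6 peaks) in WT, and the tRNA peaks had medians of 5.12 (3 peaks) in C459A and 4.24 (4 peaks) in WT. The median log2 fold change of nuclear tRNA peaks was 3.21 in C459A (36 peaks) and 2.92 in WT (26 peaks). A fold change of at least 4 was reached by 8 of 11 mitochondrial peaks in C459A, where 85.0% of all listed peaks reached it, and by 7 of 10 in WT, where 86.5% did. An adjusted p under 0.01 was given for 9 of 11 in C459A, against 80.1% of all peaks, and for 9 of 10 in WT, against 74.9%. The median width of the rRNA peaks was 218 bases in C459A and 282 in WT, and that of the tRNA peaks was 75 bases in C459A and 73 in WT. Over all listed peaks it was 85 bases in C459A and 93 in WT. A peak on the transcript reference of a tRNA cannot be wider than the tRNA. The MT-TL1 peak on chrM was wider than these medians, at 96 bases in C459A and 118 in WT.

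Nuclear DNA holds copies of mitochondrial sequence, so reads of these RNAs could align to more than one place. Stretches that matched at least 90% of a peak's length were found on the nuclear chromosomes for all 21 peaks, 10 to 34 stretches for each. For the MT-TL1 peaks the closest stretch had an identity of 92.1% for the peak on chrM in C459A and 86.4% in WT, and 93.3% for the transcript peak of either list. Those of the MT-RNR1 and MT-RNR2 peaks described above reached 93.8% to 98.9%. No listed peak on a nuclear chromosome lay, on the matching strand, on any nuclear stretch that matched a mitochondrial peak, whatever the length of the match.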

How the data were processed

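miCLIP-sequencing libraries of IP and SMInput were analysed from the authors' deposited peak lists, 1 for C459A and 1 for WT. By the methods and the submitters' processing notes, reads were trimmed with cutadapt, UMIs were handled with fastp, reads were mapped to hg38 and to repetitive element families, and peaks were called with PEAKachu. None of these sources gives a version for any tool. The authors made the log2 values, the fold change of IP over SMInput with replicates pooled, and deposited the −log10 of each adjusted p-value, which was converted back here. The lists give no counts, so depth and precision are unknown.

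Positions are 1-based. Transcript peaks were placed on chrM through GENCODE release 44, whose 4 transcripts used equal the hg38 sequence. Nuclear copies were searched with blastn 2.17.0 (e-value limit of 1e-05, word size of 11). No test across peaks or between groups was made. Every mitochondrial rRNA and tRNA with a listed peak was named, with its neighbours, except that 1 C459A peak of MT-RNR2 enters counts, medians, coverage and the plot of all listed peaks and is not otherwise reported here. The members, lists and rules were chosen with earlier results of these data known. The interval code was tested on simulated data. The alternatives were stricter thresholds, other overlap rules and 1 kind of reference at a time. Computation used python 3.11.15 with numpy 2.4.6, pandas 2.3.3, pysam 0.24.0 and matplotlib 3.10.9.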

Additional observations from a re-analysis of the deposited data

How the results depend on the processing

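No paired analysis was possible because the lists hold 1 value per peak with both replicates pooled, and for the same reason no replicate could be left out. Of 42 alternatives to 10 results, 22 left a count within 1.5 times or a value as it was. With an adjusted p under 0.01 the median log2 fold change was 2.79 in C459A and 3.29 in WT, and C459A peaks covered 48.1% of MT-RNR1. With a fold change of at least 4 the medians were 2.93 in C459A and 3.44 in WT, coverage of MT-RNR2 was 27.2% in C459A and 25.7% in WT, and coverage of MT-RNR1 was 67.6% in C459A. On chrM alone WT had 6 peaks, the C459A median was 2.36, and MT-RNR2 coverage was 44.6% in both lists. On transcript references alone there were 3 peaks in C459A and 4 in WT, with medians of 3.95 and 2.48, MT-RNR2 coverage of 18.3% and 19.0%, and MT-RNR1 coverage of 0% in both, since no listed peak lay on its transcript. Stricter thresholds and 1 kind of reference keep fewer peaks by construction, so counts and coverage could not rise under them. The other overlap rules kept every peak and changed only how peaks were matched. With transcript peaks placed on chrM, all 10 WT peaks shared a base with a C459A peak. The widths of the peaks limit every statement on position.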

Other observations

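The cytosine content of the 3 tRNAs with a listed peak lay above the median of the 22 mitochondrial tRNAs, 18.3%, and inside their range, which was not tested. The 22 tRNAs mix both senses, and all 3 with a peak are of the plus sense. Of the minus-sense tRNAs only MT-TC (21.2%) lay above that median, so it is not a like comparison for tRNAs of the plus sense. Other tRNAs of the plus sense lay above that median without a peak. They were MT-TS2 (30.5%), MT-TM (26.5%), MT-TV (26.1%), MT-TH (21.7%), MT-TT (21.2%), MT-TK (20.0%) and MT-TL2. Each of them holds a larger share of cytosine than MT-TW, so a high cytosine content did not set the tRNAs with a peak apart. MT-TL1 is the longest of the 22 mitochondrial tRNAs, and cytosines make up 21.3% of it (16 of 75 bases, 6th highest), 26.8% of MT-TF (2nd) and 19.1% of MT-TW (11th), where the 22 tRNAs range between 10.3% and 30.5%. MT-TL2, the other mitochondrial leucine tRNA, has 19.7% and was without a peak in either list.

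RNase T1 cuts after G. A G stood directly before the first base of 3 of 8 C459A and 3 of 6 WT peaks on chrM and on the last base of 4 of 8 in C459A and 3 of 6 in WT, where 18.4% and 17.6% of the bases inside these peaks were G. The MT-TL1 peak was among them at both ends in each list. On nuclear chromosomes a G stood directly before the first base of 19 of 56 C459A and 13 of 44 WT peaks and on the last base of 24 of 56 in C459A and 21 of 44 in WT, with 29.6% and 32.5% of G inside. None of these shares was tested.

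Nuclear tRNAs had 23 pairs of peaks that shared at least 50% of their joint bases. The log2 fold change was higher in C459A in 19 of them and lower in 4, with a median difference, C459A minus WT, of 0.34. The nuclear tRNA references include genes of near-identical sequence between which reads cannot be told apart, so these pairs are not independent, and the difference was not tested.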
